A study of Homo sapiens with 3 samples.

Results

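Binding of TIA1 was examined on the transcripts of 8 genes that encode chaperones of the cytosol and the mitochondria: HSP90AA1, HSP90AB1, HSPA8, HSPA4, HSPA9, HSPD1, HSPH1 and DNAJA1. A cluster (an interval of piled-up reads) was counted as a member where it overlapped the bounds of a gene by at least 1 nt on the same strand of hg19. The genes span 145.4 kb together and held 92 of the 103134 clusters of replicate 1, 96 of the 66222 clusters of replicate 2 and 4 of the 2253 peaks that the authors list as reproducible. No cluster of either replicate lay on the opposite strand of these genes.

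The data are eCLIP libraries, in which ultraviolet light fixes a protein to the RNA it touches and the RNA recovered with an antibody is sequenced beside an input. The groups were 2 libraries of anti-TIA1 immunoprecipitates and 1 input library without antibody, all from HEK293T, an established human embryonic kidney line, with no treatment other than ultraviolet crosslinking. The labels call the replicates both technical and biological, so the spread between them may be technical. One protocol field names Msi1 beside the catalogue number that another field gives to anti-TIA1. The libraries are called TIA1 here after their titles and antibody field, and which protein was precipitated was not tested. The library totals recovered from the deposited values were 2683407 and 1997817 reads in replicates 1 and 2 and 2851338 reads in the input.

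Chaperones bind unfolded stretches of other proteins and help them fold, assemble or be degraded. HSP90 acts late on clients such as kinases and steroid receptors, HSP70 binds short hydrophobic stretches in cycles of ATP hydrolysis, J-domain proteins deliver clients to HSP70, and HSP110 proteins release its nucleotide. In the mitochondrial matrix, a member of the HSP70 family and the chaperonin HSP60 fold imported proteins. TIA1 binds U-rich RNA, acts in splicing and translation control, and is a component of stress granules, which form under conditions that also induce many chaperone genes.

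Enrichment of a cluster was read from the authors' log2 fold over the input and their −log10 p, and a cluster with both at 3 or above was called enriched. The genes split into those with called clusters and those without. Enriched clusters were found in HSP90AA1, HSP90AB1, HSPA8 and HSPA9 in both replicates. In HSPA4, HSPD1, HSPH1 and DNAJA1 neither replicate had any. Each replicate had 6 enriched chaperone clusters, which is 6.52% of the members of replicate 1 (exact 95% binomial interval 2.43 to 13.7) and 6.25% of those of replicate 2 (2.33 to 13.1). The background was 3.09% of all clusters in replicate 1 and 5.32% in replicate 2, and both lie inside the intervals of the chaperone genes. A log2 fold above 0, that is, above the input, was the rule in every list: 83 of 92 chaperone clusters (90.2%) and 94.3% of all clusters in replicate 1, and 87 of 96 (90.6%) and 96.0% in replicate 2. The intervals cover counting error only, and clusters of the same gene share a transcript and are not independent.

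Where reads could be recovered, chaperone clusters had a median of 6 reads against 4 over the whole list in replicate 1, and 4 against 4 in replicate 2. Over an input number of 1, a cluster needed at least 13 reads in replicate 1 or 10 in replicate 2 to be called, and more over a larger input. Those are immunoprecipitated reads, which also enter the fold. Among clusters with at least 13 or 10 such reads recovered, 6 of 15 chaperone clusters (40.0%, exact interval 16.3 to 67.7) were enriched in each replicate. Clusters without recovered reads, most with a −log10 p of 0, are left out of this share, also over the lists. Among those left out is the HSP90AB1 cluster from 44221369 to 44221432 in replicate 1, with at least 14 reads at a log2 fold of −0.01. The same share was 43.3% over the list of replicate 1 and 52.3% over that of replicate 2, again inside the interval. With 15 such clusters in each replicate, no difference from the rest was detected, and a moderate one in either direction could not have been seen.

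**Figure D1:**
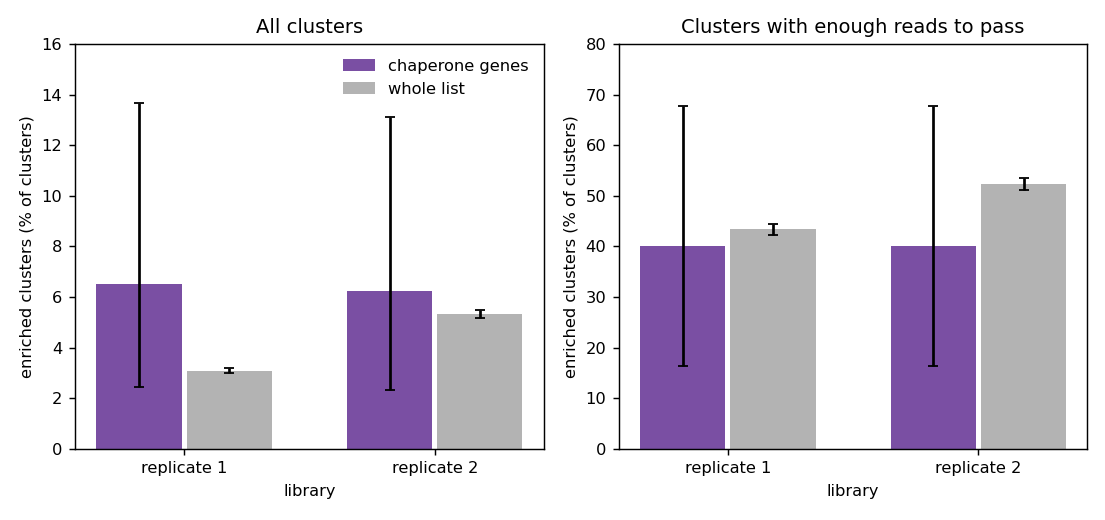
Share of clusters that were enriched (percent, vertical axis) in the 8 chaperone genes and in the whole list of each replicate, for all clusters (left) and for clusters with enough recovered reads to be called (right); bars are shares and lines are exact 95% binomial intervals. On the left the chaperone bar stands above that of the list (6.52% against 3.09% and 6.25% against 5.32%), on the right below it, and each chaperone interval includes the share of the whole list.

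The peak with the highest fold of the group, in a mean with wide counting error, was in HSP90AA1, which encodes the stress-inducible cytosolic HSP90. A reproducible peak of 53 nt (chromosome 14, minus strand, 102547902 to 102547954) was centred 854 nt before the 3′ end of the gene bounds. It held 53 reads in replicate 1 and 65 in replicate 2 over 2 reads in the input. The authors' log2 fold came to 4.82 and 5.54 in these replicates, a mean of 5.18 ± 0.51 (SD, n = 2) or 36.1-fold. The authors' −log10 p of the peak was 13.8, the lower of the replicate values of 13.8 and 22.1. Among the 2253 reproducible peaks it ranked 189 by fold and 221 by −log10 p.

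The replicates differed at this peak by more than counting error. Replicate 1 held 44.9% of the reads of both (exact 95% interval 35.7 to 54.3), against 57.3% of both library totals. Both replicates were nonetheless far above the input: the exact intervals of the log2 fold, which include the error of the 2 input reads, ran from 2.89 to 7.90 in replicate 1 and from 3.62 to 8.61 in replicate 2.

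HSP90AA1 had further clusters near the threshold upstream of that peak. Centred 5078 nt from the gene start, the cluster of replicate 1 from 102548277 to 102548309 had a log2 fold of 3.67 on 12 reads over 1, and a −log10 p of 2.86. The overlapping cluster of replicate 2, from 102548279 to 102548310, had 4.51 on 16 reads over 1 and was called at a −log10 p of 5.14. At 4061 nt from the start the order was the other way round, with 3.79 on 13 reads over 1 in replicate 1 (called, −log10 p 3.14) and 3.51 on 8 reads over 1 in replicate 2 (−log10 p 2.32). Both sites thus exceeded a log2 fold of 3 in each library, and passed the p-value limit in only 1 of them.

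HSP90AA1 had 9 clusters in replicate 1 and 7 in replicate 2, all above the input, as were most clusters of any gene. Its median log2 fold, 2.89 and 2.84, was the highest of the 8 genes in both replicates, where the other medians ran from 1.04 to 2.25 in replicate 1 and from 0.51 to 2.10 in replicate 2. The reproducible peak supplied 42.7% of the reads in the gene's clusters in replicate 1 and 58.0% in replicate 2. No test of the differences in median between genes was made, since clusters of 1 gene are no replicates.

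HSP90AB1, the constitutively expressed cytosolic HSP90, was the only member with more than 1 reproducible peak. Both lay on the plus strand of chromosome 6 in the first part of the gene, at 25.6% and 40.9% of its length. The first, from 44216546 to 44216611 (66 nt), held 62 reads in replicate 1 and 38 in replicate 2 over 3 in the input. The replicates had log2 folds of 4.46 and 4.18, a mean of 4.32 ± 0.20 (SD, n = 2) or 19.9-fold, with a −log10 p of 11.3. The second, from 44217586 to 44217644 (59 nt), held 33 and 22 reads over 3, with a log2 fold of 3.47 ± 0.11 (SD, n = 2), or 11.1-fold, and a −log10 p of 5.76.

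At both HSP90AB1 peaks the difference between replicates was within counting error: the exact interval of replicate 1's share of reads was 51.7 to 71.5 at the first and 45.9 to 73.0 at the second, and 57.3% of the totals lies in both. Replicate 1 called its own cluster at the first peak with slightly different bounds, 44216558 to 44216629, on 67 reads over 4. Its −log10 p of 16.2 was above the 13.8 of the HSP90AA1 peak in that replicate. In replicate 2 the order was reversed, with 11.3 at the first HSP90AB1 peak and 22.1 at the HSP90AA1 peak. The clusters at these peaks supplied 46.1% of the reads recovered in the gene in replicate 1 and 40.8% in replicate 2.

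Outside the peaks HSP90AB1 had no called cluster. In replicate 1 the cluster from 44219649 to 44219694 passed on its p-value and fell just short in its log2 fold, at 2.99 on 15 reads over 2. The overlapping cluster of replicate 2 had a log2 fold of 1.51 on 4 reads over 2. Near the 3′ end of the gene, centred 6622 to 6626 nt from its start, clusters had a log2 fold of 1.78 in replicate 1 (29 reads over 9) and 2.16 in replicate 2 (25 over 8), with a −log10 p of 2.97 and 3.94. That site carried many reads and a moderate fold in both libraries. Immediately before it, a cluster stood at the level of the input, at −0.01 in replicate 1 and −0.12 in replicate 2.

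**Figure D2:**
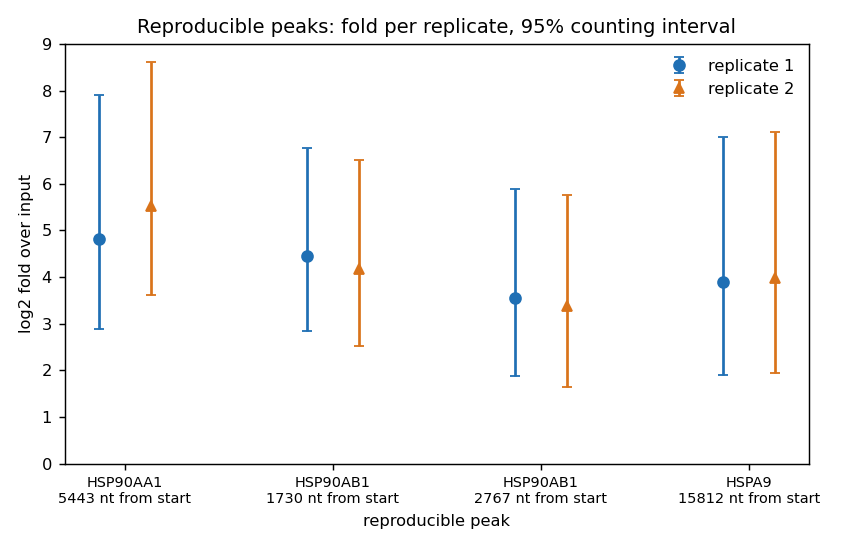
Log2 fold over the input (vertical axis) of the 4 reproducible peaks in each replicate, with exact 95% intervals that cover the counting error of immunoprecipitated and input reads. The HSP90AA1 peak has the highest points (4.82 and 5.54), and the intervals of all 4 peaks overlap, since each rests on 2 or 3 input reads.

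Among the HSP70 genes, the reproducible peak was in HSPA9, which encodes mortalin, the HSP70 of the mitochondrial matrix. The peak was 56 nt long (chromosome 5, minus strand, 137895478 to 137895533), at 76.2% of the gene's length. It held 28 reads in replicate 1 and 22 in replicate 2 over 2 in the input. These gave log2 folds of 3.89 and 3.97, a mean of 3.93 ± 0.05 (SD, n = 2) or 15.3-fold, with a −log10 p of 6.47. Of the 4 peaks it had the smallest spread between replicates.

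The other clusters of HSPA9 were weaker and carried few reads. In replicate 1 the 14 unenriched clusters ran from a log2 fold of 0.67 to 3.26, and in replicate 2 the 15 ran from −3.73 to 3.32. Outside the peak, the highest −log10 p of each replicate fell at the same place, at 2.02 in replicate 1 (137893008 to 137893070) and 2.56 in replicate 2. The log2 fold there was 3.26 on 9 reads over 1 in replicate 1 and 2.97 on 11 over 2 in replicate 2. Every HSPA9 site with overlapping clusters was above the input in both replicates, as were most clusters of the lists.

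HSPA8 encodes the constitutive cytosolic HSP70 (HSC70), which also uncoats clathrin vesicles. It had the most clusters per length, 3.01 per kb in replicate 1 and 3.23 per kb in replicate 2, and 1 enriched cluster in each library, at different places. In replicate 1 it was the cluster from 122931042 to 122931088 on the minus strand of chromosome 11, with a log2 fold of 3.09 and a −log10 p of 3.27 on 16 reads over 2. Replicate 2 had 2.51 there on 8 reads over 2, with a −log10 p of 1.70. In replicate 2 the called cluster was that from 122929701 to 122929745, with 4.32 and a −log10 p of 4.43 on 14 reads over 1, where replicate 1 had 3.26 on 9 reads over 1 and a −log10 p of 2.02. Both sites had clusters above the input in both libraries, and no reproducible peak was listed at either.

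HSPA8 also held the most strongly depleted clusters of the 8 genes, in both replicates. Centred 2764 to 2776 nt from the gene start, replicate 1 had a cluster at −4.62 (122930068 to 122930092) and replicate 2 one at −5.42 (122930056 to 122930079), 24.6-fold and 42.9-fold below the input. These folds correspond to at least 6 reads over 157 and at least 5 over 306. A second depleted place, 4028 to 4044 nt from the start, had −2.77 and −3.15. In GENCODE release 29, on another genome build, the snoRNA genes SNORD14C, SNORD14D and SNORD14E lie inside HSPA8 on its strand, and SNORD63 and RF00154 lie inside HSPA9, where replicate 2 alone had a cluster at −3.73. Whether the depleted clusters fall on these snoRNA genes was not tested, as their hg19 positions are not used here. Of the 9 chaperone clusters below the input in each replicate, 6 and 4 were in HSPA8. Clusters below the input made up the remainder of the shares given above, 90.2% and 90.6% of the chaperone clusters being above it against 94.3% and 96.0% of the lists.

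**Figure D3:**
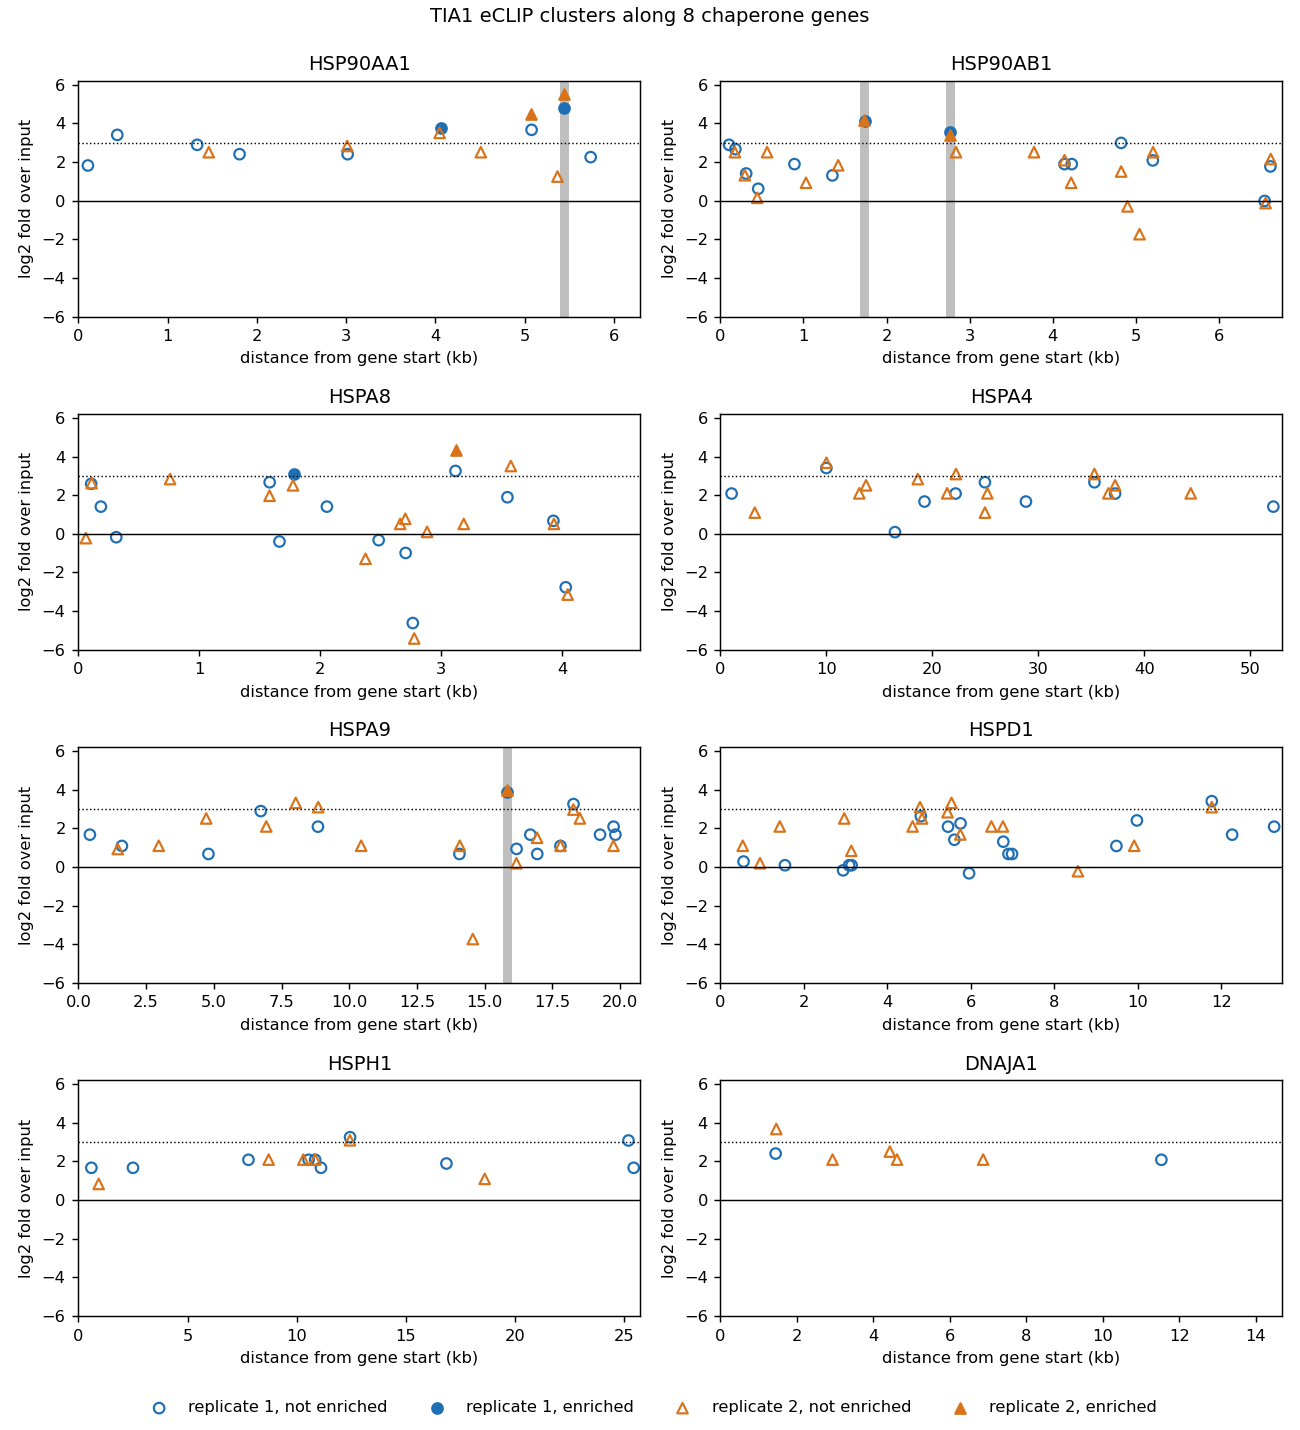
Log2 fold over the input (vertical axis) of every cluster along the 8 genes, by the distance of its centre from the gene start (kb, in the direction of transcription); circles are replicate 1, triangles replicate 2, filled symbols enriched clusters, grey bands, drawn wider than the peaks, reproducible peaks, and the dotted line a log2 fold of 3. Filled symbols are in HSP90AA1, HSP90AB1, HSPA8 and HSPA9, and the points below −2 are in HSPA8 and HSPA9.

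HSPA4 and HSPH1 encode HSP110 proteins, which act as nucleotide exchange factors of HSP70. Neither had an enriched cluster. HSPA4 is the longest of the genes (53048 nt) and had 10 clusters in replicate 1 and 13 in replicate 2, all above the input like most clusters of the lists, with a median log2 fold of 2.09 and 2.10. Its highest cluster lay at the same place in both libraries, near 10 kb from the start. It had a log2 fold of 3.41 on 10 reads over 1 in replicate 1 (132397643 to 132397674, −log10 p 2.29) and 3.68 on 9 over 1 in replicate 2 (−log10 p 2.67). HSPH1 had 10 and 6 clusters, also all above the input, and the highest pair lay at 31724035 to 31724080 on chromosome 13, with 3.26 on 9 reads over 1 in replicate 1 and 3.10 on 6 reads over 1 in replicate 2. No cluster of either gene held enough immunoprecipitated reads to be called. Whether this reflects little transcript or little binding was not tested.

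HSPD1, which encodes HSP60, the chaperonin of the mitochondrial matrix, had enough reads at some sites and a lower fold. Its leading cluster in replicate 1 (chromosome 2, minus strand, 198359924 to 198360018) had 35 reads over 6, with a log2 fold of 2.63 and a −log10 p of 5.31. In replicate 2 the same stretch was split into a cluster at 2.51 on 16 reads over 4 (−log10 p 3.08) and another at 3.10 on 12 over 2 (−log10 p 2.85). Each therefore missed the threshold by its fold or by its p-value. The highest fold in HSPD1 was 3.41 on 10 reads over 1 in replicate 1, at 198352982 to 198353018, where replicate 2 had 3.10 on 6 over 1 with the same bounds.

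DNAJA1, a J-domain partner of HSP70, had the fewest clusters, 2 in replicate 1 and 5 in replicate 2. Its highest was near 1.4 kb from the start, with 2.41 on 5 reads over 1 in replicate 1 and 3.68 on 9 reads over 1 in replicate 2 (33026637 to 33026700 on chromosome 9, −log10 p 2.67). The other clusters ran from 2.09 to 2.51 on 3 or 4 reads each, and none of the gene's clusters held enough reads to be called.

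Taking all 8 genes, 48 of 92 clusters of replicate 1 (52.2%) overlapped a cluster of replicate 2, and 49 of 96 (51.0%) the reverse. Over the whole lists these shares were 28.9% and 45.0%. Chaperone clusters also held enough reads to be called more often, in 19.2% and 17.4% of recovered clusters against 8.02% and 10.6% over the lists. Whether the difference in overlap goes with read depth was not tested. Over the 48 pairs the difference of replicate 2 minus replicate 1 had a median of 0.03 on the log2 scale and a median size of 0.45, and ran from −1.57 to 2.69. Replicate 2 was higher in 27 pairs. Of the 6 enriched clusters in each replicate, 4 overlapped a reproducible peak, and the others are those of HSP90AA1 and HSPA8 described above.

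**Figure D4:**
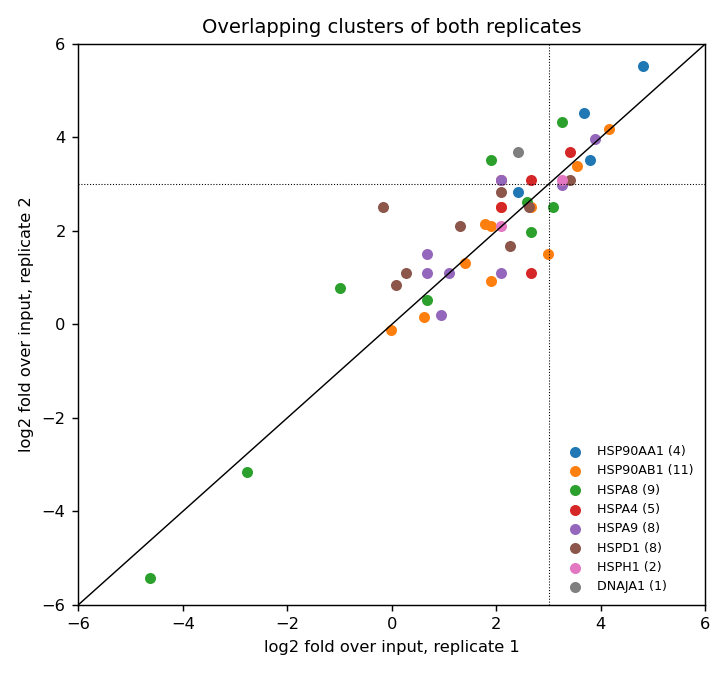
Log2 fold over the input of 48 overlapping clusters, replicate 1 on the horizontal and replicate 2 on the vertical axis, coloured by gene with the number of pairs in brackets; the line marks equal values and the dotted lines a log2 fold of 3. Most pairs lie near the line, the lowest pairs are those of HSPA8 (−4.62 with −5.42 and −2.77 with −3.15), and the highest is the HSP90AA1 peak.

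Within the authors' list, the 4 chaperone peaks were 0.178% of all reproducible peaks. Their median log2 fold was 4.13, against 4.15 for the list, and their median width 57.5 nt against 53 nt. The HSP90AB1 peaks ranked 870 and 1885 by fold and that of HSPA9 1445. By −log10 p all 4 ranked in the upper part of the list, at 221 (HSP90AA1), 309 and 893 (HSP90AB1) and 748 (HSPA9), with a median of 8.87 against 4.88. The chaperone peaks thus lay near the middle of the list by median fold and above it by −log10 p, which also grows with the number of reads. With 2 replicates and a shared input, no test between peaks was made.

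The sequence under the peaks was not read, since no genome of build hg19 was used. A run of 5 T (U in RNA), of the kind TIA1 binds, was instead counted in the spliced principal transcript of each gene in GENCODE release 29, with overlapping matches, on the transcript strand alone. HSPA4 had 40 matches (8.29 per kb) and HSPH1 28 (5.39 per kb), most of them after the coding part (38 and 24). HSPA9 had 16, of which 15 lay after the coding part. HSP90AA1 had 7, HSP90AB1 5, DNAJA1 4, HSPA8 3 and HSPD1 2. The median over 19619 protein-coding genes was 2.09 per kb, with quartiles of 0.561 and 4.65, and 81.6% of their transcripts held the motif. Of the genes with a reproducible peak, HSPA9 at 3.38 per kb lay above that median, and HSP90AA1 and HSP90AB1, at 2.07 and 1.87 per kb, lay near it. HSPA4 and HSPH1, at 8.29 and 5.39 per kb, lay above the upper quartile and had no called cluster. Their clusters held at most 12 and 9 immunoprecipitated reads (HSPA4) and 9 and 6 (HSPH1) in replicates 1 and 2. Whether so few reads reflect little transcript or little binding was not tested. Introns are not in these transcripts, and the matches were not placed against the clusters.

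Some of these genes have copies in the genome. GENCODE release 29 names 17 pseudogenes of HSPA8, 17 of HSPD1, 6 of DNAJA1, 1 of HSPA9, and 4 and 5 in the HSP90 alpha and beta families. How reads that fit more than 1 copy were placed is not given in the sources used here, so read numbers of these genes could be low or could include reads of a copy, which was not tested.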

How the data were processed

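TIA1 eCLIP libraries of HEK293T cells (2 replicates) and 1 input were used through 3 lists of intervals. The submitters' processing notes list hg19, SAMtools 1.4.1, STAR 2.4.0i and cutadapt (1.9.1, 1.14). The cluster caller is not given in the sources used here. Lists the authors deposited hold a −log10 p-value (ceiling 400) and a log2 fold over input per interval, read from values without a header. Clusters were called per replicate, and the reproducible list pools both.

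Reads were recovered here from the steps of the fold, uniquely for 88.7% (replicate 1) and 95.7% (replicate 2) of clusters. Most others have a −log10 p of 0. The totals were the smallest whole numbers that gave both offsets, times the multiple of 1 to 6 that best returned the p-values, and read pairs matched the p-value within a relative 2e-05. The ratio of the totals is fixed by the fold, whereas their absolute size rests on small differences in p. The deposited p-values were matched by a Yates-corrected chi-square, or by Fisher's exact test if any number, observed or expected, was below 5. An input number of 1 may stand for 0. The list of reproducible peaks gives the mean fold. At all 4 peaks its −log10 p equals the lower of the values of the replicates' own clusters. The fold of the replicate whose bounds were not used was taken from the mean fold and the other's value. Its reads came out whole at all 4 peaks. Recovery of read pairs was tested on simulated data with the library totals given, and only for pairs above the input. The recovery of the totals was not tested that way.

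Intervals are exact binomial (Clopper-Pearson, 95%, scipy 1.17.1), conditional on the sum of reads for folds, and cover counting error only. Overlap used pyranges 0.1.4. No set test was made. All 8 genes are named, with every reproducible peak and the leading cluster of each gene. The genes and settings were chosen with earlier results of these data known. The count of 5-T runs, the snoRNA and pseudogene names and the below-input clusters were added after seeing the data. Exon annotation, peak sequence and other chaperone genes were planned only for an hg19 reference and were not analysed here.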

Additional observations from a re-analysis of the deposited data

How the results depend on the processing

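Of 28 alternative settings, 17 left the result within 1.5 times the count, or within 1 SD of the replicates. Of these, 10 leave out 1 replicate of a share or fold. With 2 replicates either value lies within 1 SD of their mean by construction, which shows nothing about stability. The exception is replicate 1 at the first HSP90AB1 peak, where its own cluster (4.15) was used and not the 4.46 that enters the mean. When a log2 fold of 4 with a −log10 p of 5 was required, the mean number of enriched clusters per replicate fell from 6 to 2.5, their share of chaperone clusters was 2.65%, and 2 reproducible peaks were left, those of HSP90AA1 and the first of HSP90AB1. At a laxer log2 fold of 1 the share was 9.06%, and among clusters with enough recovered reads it was 40.0%, both against a mean of 6.39%. Over the whole lists the share was 0.886% and 1.51% at the stricter setting and 4.14% and 6.36% at the laxer one, in replicates 1 and 2. The opposite strand held no cluster of any kind, so its 0 enriched clusters and 0 peaks give no background rate. Without replicate 1 or without replicate 2 the number of enriched clusters was 6 each time and the share 6.25% to 6.52%. Gene bounds widened by 1000 nt, or whole clusters inside the bounds, changed neither 6 nor 4.

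With 1 read added to the immunoprecipitated and input numbers, the mean log2 fold was 4.62 at the HSP90AA1 peak, 3.93 and 3.11 at the HSP90AB1 peaks and 3.41 at the HSPA9 peak. With either replicate alone, in its own cluster, the folds were 4.82 to 5.54 (HSP90AA1), 4.15 to 4.18 and 3.39 to 3.55 (HSP90AB1), and 3.89 to 3.97 (HSPA9). Input depth limits every fold: the 4 peaks rest on 2 or 3 input reads.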
